A study of Mus musculus with 16 samples.

Results

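A set of 10 genes that build and modify long-chain fatty acids was followed in murine gingival fibroblasts (mGF) given palmitate, IL-1β or both. They were set by name, with earlier results of these data known, and make up 10 of the 56941 genes in the deposited table. Scd1 and Scd2 encode stearoyl-CoA desaturases, Fads1, Fads2 and Fads3 belong to the fatty acid desaturase family, Elovl5 and Elovl6 encode elongases, and Acly, Acaca and Fasn make fatty acids from citrate. Primary fibroblasts were grown from gingival explants of wild-type C57Bl6 mice aged 3 to 6 months and used between passages 2 and 8. Bulk RNA was sequenced after 24 h, the time the study states, in 4 conditions with 4 libraries each. These were the vehicle BSA, IL-1β at 1 ng/mL, palmitate at 200 μM bound to BSA, and the 2 agents together at those doses (palmitate + IL-1β). All libraries came from wild-type cells of the same tissue, and the sources name neither the number of mice nor whether libraries of a condition were separate cultures, so the p-values measure the spread between these libraries, which may be technical.

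Citrate exported from mitochondria is split by ATP citrate lyase (Acly) into acetyl-CoA, acetyl-CoA carboxylase (Acaca) turns it into malonyl-CoA, and fatty acid synthase (Fasn) joins these units into palmitate. Palmitate, the saturated fatty acid given to these cells, is thus the product of Fasn and the substrate of the later enzymes: Elovl6 lengthens it to stearate, and Scd1 and Scd2 place a first double bond in palmitate and stearate to give monounsaturated fatty acids. Fads2, Elovl5 and Fads1 act in turn on dietary polyunsaturated fatty acids to make arachidonate and its relatives, whereas Fads3 acts on sphingoid bases. Many of these genes are known targets of the SREBP and LXR factors, and polyunsaturated fatty acids and sterols are known to lower SREBP activity.

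All 10 genes passed the filter on low counts. Between 21234789 and 92752515 counts fell on genes per library, the highest in palmitate replicate 10 and at most 35329711 in the others. The lowest count of any of the 10 genes in any library was 908, for Elovl6. The 8 fibroblast markers, among them Col1a1, Dcn and Pdgfra, were over 3 counts in every library. They summed to 26230 to 27810 CPM in BSA, 27940 to 28340 CPM in IL-1β, 24670 to 26730 CPM in palmitate and 24200 to 26250 CPM with both agents. Against BSA, edgeR called 1 of the 8 higher and 3 lower with palmitate, 2 higher and 1 lower with IL-1β, and 1 higher and 5 lower with both agents, with median log2 differences of -0.07, -0.01 and -0.16. Over all genes tested, palmitate gave 19.8% higher and 17.5% lower. These shares were 10.1% and 4.97% for IL-1β, and 24.8% and 22.5% for both agents. The part of the fibroblast markers in the results was not tested. None of 4 adipocyte markers (Adipoq, Plin1, Cidec, Lep) passed 3 counts in every library of a condition, and they summed to at most 0.234 CPM. Epithelial markers summed to at most 0.728 CPM, leukocyte markers to 2.04 to 3.28 CPM and endothelial markers to 0.663 to 1.60 CPM. The Schwann cell and melanocyte list summed to 19.5 to 38.8 CPM, nearly all of it Mitf, with Sox10 at or near 0. Mitf was at 18.2 ± 1.20 CPM in BSA and 33.9 ± 1.81 CPM in palmitate (SD, n = 4), and its part in the results below was not tested. In bulk RNA, fewer cells of a type and less RNA per cell cannot be told apart.

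Of the 10 genes, 5 lie on chromosome 19 and 3 on chromosome 11 of the mouse genome (GRCm39). Scd1 (chr19:44382894-44399154, minus strand) and Scd2 (chr19:44281613-44295303, plus strand) lie close together, with Scd4 between them, and in a separate cluster lie Fads1 (chr19:10160167-10174241), Fads2 (chr19:10038130-10079203) and Fads3 (chr19:10018253-10037928). Fasn (chr11:120696672-120715995), Acly (chr11:100367165-100440756) and Acaca (chr11:84020476-84292477) stand apart from each other on chromosome 11, Elovl5 is at chr9:77818113-77891802 and Elovl6 at chr3:129326004-129432144. The bases around the start of the transcript that Ensembl marks as canonical were read, from 250 before it to 50 after it. Other starts of a gene were not read. The letters sought on both strands were the SRE core TCACNCCAC, to which SREBP binds, and the NF-Y box CCAAT, a frequent companion of SREBP sites. The promoters of 9 of the genes are described, and those of Scd1 and Fads2 are shown because both genes were lower in each treated condition and each held a pair of NF-Y boxes. Capitals mark the NF-Y box or its complement.
Scd1, chr19:44396291-44396590, minus strand: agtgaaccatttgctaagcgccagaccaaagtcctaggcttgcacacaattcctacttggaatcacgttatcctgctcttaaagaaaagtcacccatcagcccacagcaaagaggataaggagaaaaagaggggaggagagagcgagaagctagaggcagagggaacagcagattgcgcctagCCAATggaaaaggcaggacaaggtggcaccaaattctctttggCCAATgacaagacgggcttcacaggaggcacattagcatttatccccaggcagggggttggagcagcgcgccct
Fads2, chr19:10079154-10079453, minus strand: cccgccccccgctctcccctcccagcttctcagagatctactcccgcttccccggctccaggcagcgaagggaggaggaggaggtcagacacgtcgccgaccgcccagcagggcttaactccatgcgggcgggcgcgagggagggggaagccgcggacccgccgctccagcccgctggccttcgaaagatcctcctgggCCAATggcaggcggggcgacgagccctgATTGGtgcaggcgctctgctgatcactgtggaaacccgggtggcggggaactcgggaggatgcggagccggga

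Scd1 held 2 NF-Y boxes, at 67 and 24 bases before the start, and no SRE core. Fads2 held 2, at 51 and 23 bases before the start. So did Fads3, at 26 bases before and 2 after the start, and Fads3 was not called against BSA in the main fit. Scd2, Fads1, Elovl5, Elovl6 and Acaca, all called lower with both agents, held no NF-Y box. Acaca was the only 1 of these 9 with the SRE core, as TCACACCAC at 98 bases before the start, while 1.34% of 21770 promoters of the same length held it. This Acaca match lay in a stretch rich in CA repeats, which resemble the motif. The window (chr11:84063698-84063997) lay inside the gene, which begins at 84020476, so a promoter further upstream was not read. The NF-Y box was in 4 of the 9 (Scd1, Fads2, Fads3, Acly) against 39.9% of all promoters. The GC box GGGCGG, bound by Sp1, was in 3 of the 9 (Fads2, Fads3, Acly) against 42.5%, and the E-box CACGTG in 2 (Elovl5, Acaca) against 7.81%. The E-box of Acaca lay in the same CA-rich stretch as its SRE core. In these 9 promoters no match of one motif shared a base with a match of another. The matches describe letters in a window, and no binding was measured.

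Scd2 was by far the highest of the 10 genes. Levels are given as CPM, counts scaled to the size of the library. Divided by transcript length (CPM per kb), which allows different genes to be compared, Scd2 stood at 142 ± 11.1 in BSA and Scd1 at 43.2 ± 3.68 (SD, n = 4, as for every such value below). The other 3 desaturases followed with Fads1 at 37.7 ± 1.38, Fads3 at 36.2 ± 0.50 and Fads2 at 28.4 ± 1.24 CPM per kb. Acly was at 36.1 ± 1.09 and Elovl5 at 32.9 ± 1.95 CPM per kb, and the ranges of Fads1, Fads3, Acly and Elovl5 overlapped each with the next. The lowest were Fasn at 13.6 ± 1.25, Elovl6 at 9.19 ± 1.04 and Acaca at 7.80 ± 0.381 CPM per kb, of which the last pair overlapped. By plain CPM in BSA, Scd2 ranked 106 and Scd1 608 of the 56941 genes, and Elovl6 was the lowest of the 10 at 3158. The close relatives Scd3 and Scd4 were nearly absent, with means of at most 0.0490 and 0.424 CPM in any condition.

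**Figure D1:**
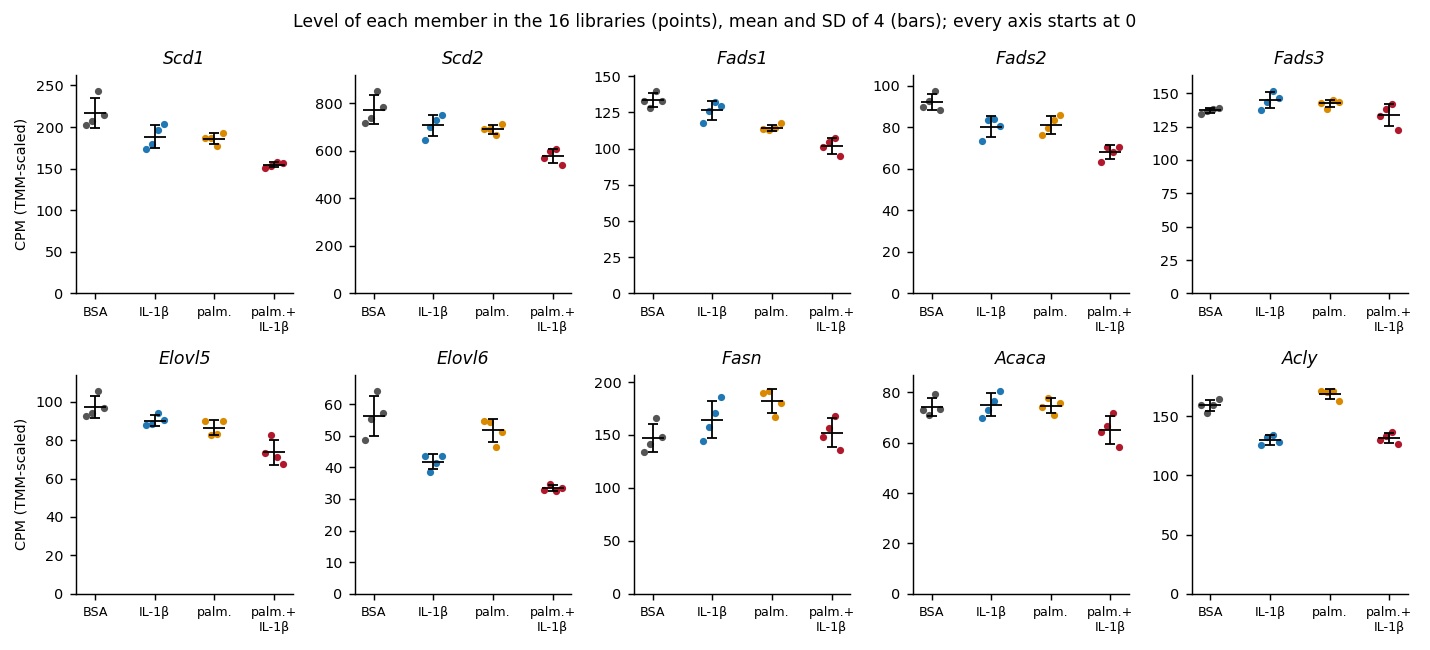
Level of each of the 10 genes in each of the 16 libraries, as CPM on TMM-scaled library sizes (each axis from 0), for BSA, IL-1β, palmitate (palm.) and palmitate + IL-1β. Points are libraries and bars the mean and SD of 4. Scd1 goes from 217 CPM in BSA to 155 CPM in palmitate + IL-1β with no overlap, whereas Fads3 stays between 123 and 152 CPM in all 16.

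Scd1 was lower in every treated condition. It was at 202, 208, 244 and 214 CPM in the BSA libraries and at 187, 187, 177 and 193 CPM in the palmitate libraries. With IL-1β it was at 174, 179, 196 and 203 CPM, and with palmitate + IL-1β at 151, 153, 158 and 156 CPM. All palmitate libraries lay below all BSA libraries, IL-1β overlapped BSA by 1 library, and the 4 libraries with both agents lay below all 12 others. The fitted level fell to 0.858 of BSA with palmitate (log2 -0.22, SE 0.05, edgeR adjusted p 0.000969), to 0.868 with IL-1β (log2 -0.20, adjusted p 0.00644 in edgeR) and to 0.714 with both (log2 -0.49, adjusted p 3.41e-09 in edgeR).

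The BSA libraries of Scd2 were at 717, 738, 853 and 786 CPM and the palmitate libraries at 693, 691, 666 and 711 CPM. IL-1β gave 648, 699, 730.2 and 751 CPM, and palmitate + IL-1β 569, 600.4, 607 and 539 CPM. The palmitate libraries lay just below the lowest BSA library, and Scd2 fell by 0.16 on the log2 scale (edgeR adjusted p 0.0123). This call rested on BSA replicate 3, the highest library for Scd2: without it the difference was -0.11, with an edgeR adjusted p of 0.0791. The log2 difference for IL-1β was -0.13, with an edgeR adjusted p of 0.0915 that became 0.0353 without BSA replicate 1, the lowest of its group, and the difference ran from -0.17 to -0.08 over single libraries left out. With both agents Scd2 fell by 0.42 on the log2 scale (SE 0.05, edgeR adjusted p 5.34e-08), to 0.748 of BSA. Transcripts of Scd1 and Scd2 were 87.6% identical over a stretch of 1196 bases, and 11.4% of the Scd2 transcript matched a transcript annotated to Scd1 at 95% identity or more, so part of their reads may not have been counted or split.

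The share of Scd1 in the sum of both desaturases, per transcript length, was computed within each library and so needs no scaling between libraries. It was 23.5%, 23.4%, 23.7% and 22.83% in BSA, 22.6%, 22.7%, 22.42% and 22.76% in palmitate, 22.6%, 21.8%, 22.6% and 22.7% in IL-1β, and 22.3%, 21.7%, 22.1% and 23.97% in palmitate + IL-1β. Means were 23.3 ± 0.360% in BSA, 22.6 ± 0.147% in palmitate, 22.4 ± 0.444% in IL-1β and 22.5 ± 1.00% with both. Each single agent gave a two-sided exact permutation p of 0.0286 against BSA, the smallest that 4 against 4 allow, and 0.0714 after adjustment over the 5 comparisons made. For both agents against BSA the exact permutation p was 0.2 (adjusted 0.333), and against IL-1β or palmitate alone it was 0.914 and 0.886. All palmitate libraries, at most 22.76%, and all IL-1β libraries, at most 22.74%, lay below all BSA libraries, at least 22.83%, by a mean of -0.717 and -0.919 percentage points. With 4 libraries each and 5 comparisons, 2 comparisons at the smallest p could not pass the threshold after adjustment.

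Of the Fads genes, Fads1 and Fads2 were called lower than BSA in the main fit and Fads3 was not. Fads1, the delta-5 desaturase, was at 133, 128, 140 and 133 CPM in BSA and at 113, 113, 114 and 118 CPM in palmitate. IL-1β libraries held 118, 126, 132 and 129 CPM, and those with both agents 101, 105, 107 and 94.8 CPM. Palmitate libraries lay below all of BSA (log2 -0.22, SE 0.04, edgeR adjusted p 0.000154) and IL-1β libraries overlapped BSA (log2 -0.08, edgeR adjusted p 0.258). Fads1 was the only 1 of the 5 desaturases among the 10 genes that was called between palmitate and IL-1β: it was lower with palmitate than with IL-1β (log2 -0.14, edgeR adjusted p 0.0141), although without IL-1β replicate 7 the edgeR adjusted p was 0.0564. With both agents Fads1 stood at 0.763 of BSA (log2 -0.39, edgeR adjusted p 1.06e-08).

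Fads2, the delta-6 desaturase that opens the polyunsaturated route, was at 89.8, 92.7, 97.6 and 88.5 CPM in BSA. It was at 76.1, 79.5, 83.4 and 85.9 CPM in palmitate and at 73.2, 83.6, 83.9 and 80.5 CPM in IL-1β. With both agents it was at 63.0, 70.6, 68.1 and 70.4 CPM. Each treated condition lay wholly below BSA, and the palmitate and IL-1β libraries overlapped each other. Fads2 fell by 0.18 on the log2 scale with palmitate (edgeR adjusted p 0.00412), by 0.20 with IL-1β (edgeR adjusted p 0.00577) and by 0.44 with both (edgeR adjusted p 1.09e-08).

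Fads3, which lies next to Fads2, ranged from 135 to 139 CPM in BSA, from 138 to 152 CPM in IL-1β, from 139 to 145 CPM in palmitate and from 123 to 142 CPM with both agents. Its log2 differences from BSA were 0.05, 0.08 and -0.04 for palmitate, IL-1β and both, with edgeR adjusted p of 0.373, 0.261 and 0.536. The 95% intervals of these differences ran from -0.04 to 0.14, from -0.01 to 0.17 and from -0.12 to 0.05. In the main fit the combined treatment was called lower only against IL-1β (log2 -0.11, edgeR adjusted p 0.0439). That call was lost without any 1 of 5 libraries (IL-1β replicates 6, 7 and 8, palmitate + IL-1β replicates 13 and 16), where adjusted p from edgeR ran from 0.064 to 0.201. It was also lost in a fit of the 8 libraries compared (edgeR adjusted p 0.0563). Against BSA, upper-quartile normalization called Fads3 lower with both agents (log2 -0.11, edgeR adjusted p 0.0254).

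The elongases parted. Elovl5, which lengthens polyunsaturated fatty acids, was at 92.7, 94.2, 105.6 and 96.8 CPM in BSA, 89.8, 82.8, 83.3 and 89.9 CPM in palmitate, and 87.8, 88.4, 94.1 and 90.3 CPM in IL-1β. With both agents it was at 73.5, 82.5, 71.2 and 67.3 CPM. It fell with palmitate (log2 -0.17, edgeR adjusted p 0.00931), a call lost without BSA replicate 3 (log2 -0.13, edgeR adjusted p 0.0534), and more with both agents (log2 -0.40, edgeR adjusted p 1.38e-07). For IL-1β alone the log2 difference was -0.11 (edgeR adjusted p 0.173) and the libraries overlapped with BSA.

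Elovl6, the elongase that acts on palmitate itself, showed the largest difference of the 10 genes. It was at 48.7, 55.2, 64.2 and 57.3 CPM in BSA and at 54.7, 54.3, 46.6 and 51.3 CPM in palmitate, which overlapped. IL-1β libraries were at 43.5, 38.7, 41.5 and 43.7 CPM, all below BSA, and the libraries with both agents at 32.9, 34.8, 32.5 and 33.5 CPM, below all others. Elovl6 fell with IL-1β to 0.743 of BSA (log2 -0.43, SE 0.06, edgeR adjusted p 1.82e-05) and with both agents to 0.594 (log2 -0.75, SE 0.07, edgeR adjusted p 1.32e-10). With palmitate alone the log2 difference was -0.12 (edgeR adjusted p 0.146), which was -0.20 (edgeR adjusted p 0.00972) without BSA replicate 1, the lowest BSA library, -0.05 (edgeR adjusted p 0.548) without BSA replicate 3, the highest, and -0.07 (edgeR adjusted p 0.426) without palmitate replicate 11. Palmitate and IL-1β differed for Elovl6, which was higher with palmitate (log2 0.31, edgeR adjusted p 0.000483). The Elovl6 transcript shares 13.1% of its length with the pseudogene Gm11295, which had 0 to 3 counts.

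Fasn, whose product is palmitate, was the only one of the 10 genes that edgeR called higher than BSA in any condition. It was at 134, 141, 166 and 148 CPM in BSA and at 189.6, 192, 167 and 180.2 CPM in palmitate, above all BSA libraries. IL-1β gave 144, 158, 171 and 186 CPM, and palmitate + IL-1β 148, 157, 168 and 136 CPM. Both of these groups overlapped with BSA. The rise with palmitate was 1.24-fold (log2 0.31, SE 0.08, edgeR adjusted p 0.00845). For IL-1β the log2 difference was 0.16 (edgeR adjusted p 0.241), and with both agents it was 0.05, with a 95% interval from -0.13 to 0.23 and an edgeR adjusted p of 0.68.

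Acaca and Acly, which stand before Fasn in the route, were not called higher with palmitate. Acaca ranged from 71.1 to 79.4 CPM in BSA, from 71.1 to 77.95 CPM in palmitate and from 69.9 to 80.6 CPM in IL-1β, with log2 differences of 0.01 and 0.02 (edgeR adjusted p 0.878 and 0.882). With both agents Acaca was at 64.1, 66.6, 71.7 and 58.2 CPM, 1 library of which reached into the range of BSA, and it was lower (log2 -0.19, edgeR adjusted p 0.00505). Of the Acaca transcript 64.3% matched the pseudogene Gm5182 at 95% identity or more, and HTSeq left reads that align to several places uncounted, so its level may be too low. Gm5182 itself had 11 to 55 counts.

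Acly followed IL-1β and not palmitate. It was at 159.5, 153, 159 and 165 CPM in BSA and at 171, 170.3, 171 and 163 CPM in palmitate, which overlapped (log2 0.09, edgeR adjusted p 0.0972). With IL-1β it was at 125, 133, 135 and 128 CPM and with both agents at 129.7, 133, 137 and 127 CPM, 2 groups that overlapped each other and lay below all other libraries. Acly fell to 0.817 of BSA with IL-1β (log2 -0.29, SE 0.04, edgeR adjusted p 2.64e-06) and to 0.827 with both (log2 -0.27, edgeR adjusted p 1.04e-06). It was higher with palmitate than with IL-1β (log2 0.38, edgeR adjusted p 6.71e-09). The gene overlaps Odad4 on the opposite strand by 4324 bases, which matters only where reads were not assigned by strand.

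**Figure D2:**
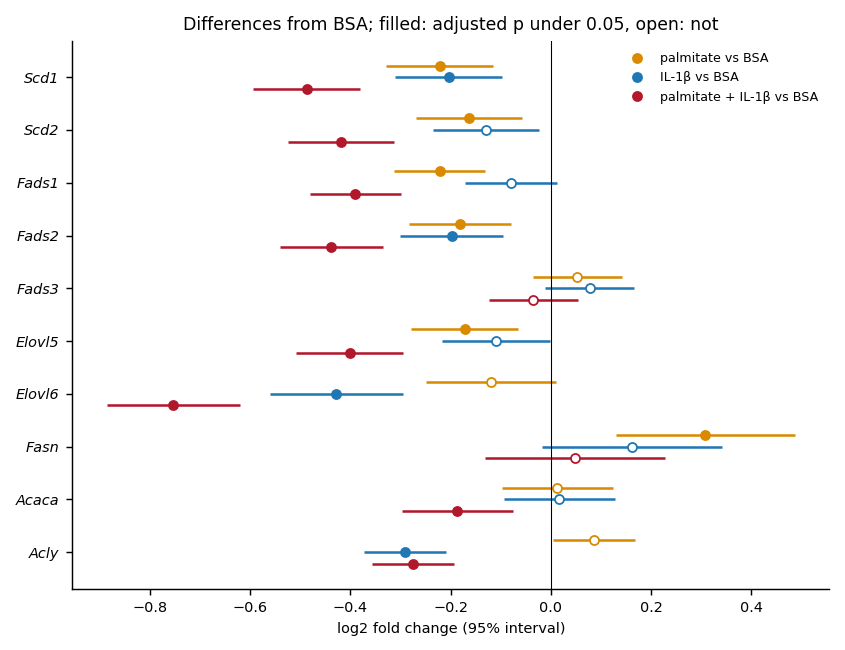
Log2 fold change of each of the 10 genes against BSA for palmitate, IL-1β and palmitate + IL-1β, with 95% intervals from the edgeR fit. Filled points have an adjusted p under 0.05 and open points do not. Elovl6 lies lowest at -0.75 with both agents, and Fasn with palmitate is the only filled point above 0.

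Counted over the 10 genes, palmitate lowered 5 and raised 1, against 17.5% and 19.8% of the 16306 genes tested, and the median log2 difference was -0.14 against -0.003 for all genes. Without BSA replicate 3, palmitate lowered 3 of the 10. IL-1β lowered 4 (Scd1, Fads2, Elovl6, Acly) and raised none, against 4.97% and 10.1% of all genes, with a median of -0.12 against -0.005. With both agents 8 were lower than in BSA and none higher, against 22.5% and 24.8%, and the median was -0.40 against 0.002. This count was 8 as well with DESeq2, with either other filter and without any single library, and 9 under upper-quartile normalization, which also called 7 of the 10 lower with IL-1β. Upper-quartile normalization turned the balance of calls over all genes, from 53.1% to 37.1% higher with palmitate, from 67.1% to 43.5% with IL-1β and from 52.4% to 38.7% with both. Palmitate against IL-1β gave 2 higher (Elovl6, Acly) and 1 lower (Fads1), against 16.5% and 15.2% of all genes, with a median of -0.01.

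The 10 genes were not independent of each other within a condition. BSA replicate 3 was the highest of its group for 8 of the 10 genes and IL-1β replicate 5 the lowest of its group for 9. Palmitate + IL-1β replicate 16 was the lowest of its group for 7 and replicate 15 the highest for 7. The counts of genes called therefore do not amount to as many separate observations.

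Each agent was also compared on top of the other. Palmitate added to IL-1β shares no library with palmitate against BSA, nor does IL-1β added to palmitate with IL-1β against BSA. Palmitate added to IL-1β lowered 8 of the 10 genes, all but Fasn and Acly, and raised none, against 16.1% lower and 18.9% higher among all genes, with a median of -0.26 against 0.007. The decreases were similar in size, between -0.20 for Acaca and -0.32 for Elovl6 on the log2 scale apart from Fads3 at -0.11. Scd1 fell by 0.28 (edgeR adjusted p 6.5e-05), Scd2 by 0.29 (edgeR adjusted p 4.18e-05) and Fads1 by 0.31 (edgeR adjusted p 1.39e-06). Elovl6, not called with palmitate alone, fell by 0.32 (edgeR adjusted p 0.000292). Fasn was at -0.11 (edgeR adjusted p 0.327), on the other side of 0 from its rise with palmitate alone, and Acly at 0.02 (edgeR adjusted p 0.794).

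IL-1β added to palmitate also lowered 8 of the 10, all but Fads3 and Fasn, and raised none, where 4.1% of all genes were lower and 5.71% higher, with a median of -0.26 against 0.007. Of all genes called, 58.2% were higher, and 48.4% without the expression filter. Elovl6 fell by 0.63 on the log2 scale (SE 0.07, edgeR adjusted p 6.03e-08) and Acly by 0.36 (edgeR adjusted p 9.49e-08). Scd1 fell by 0.27 (edgeR adjusted p 0.000763), Scd2 by 0.25 (edgeR adjusted p 0.00105), Fads2 by 0.26 (edgeR adjusted p 0.000707) and Elovl5 by 0.23 (edgeR adjusted p 0.00359). Fads1 fell by 0.17 and Acaca by 0.20, but these 2 calls depended on single libraries. Without palmitate + IL-1β replicate 16 the edgeR adjusted p was 0.0595 for Fads1 and 0.0761 for Acaca, without palmitate replicate 12 it was 0.0532 for Fads1, and without palmitate replicate 10 it was 0.0697 for Acaca. Fasn was at -0.26 with an edgeR adjusted p of 0.0644, which passed the threshold with DESeq2 (0.011), under upper-quartile normalization (0.0409), with no expression filter (6.04e-06), with at least 10 counts in every library (0.0406), in a fit of the 8 libraries compared (0.00603) and without palmitate + IL-1β replicate 15 (edgeR adjusted p 0.0329). Without any other single library the edgeR adjusted p of Fasn ran from 0.0504 to 0.181. With no expression filter the Fasn difference itself was -0.28, so the far lower adjusted p there came with nearly the same difference.

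**Figure D3:**
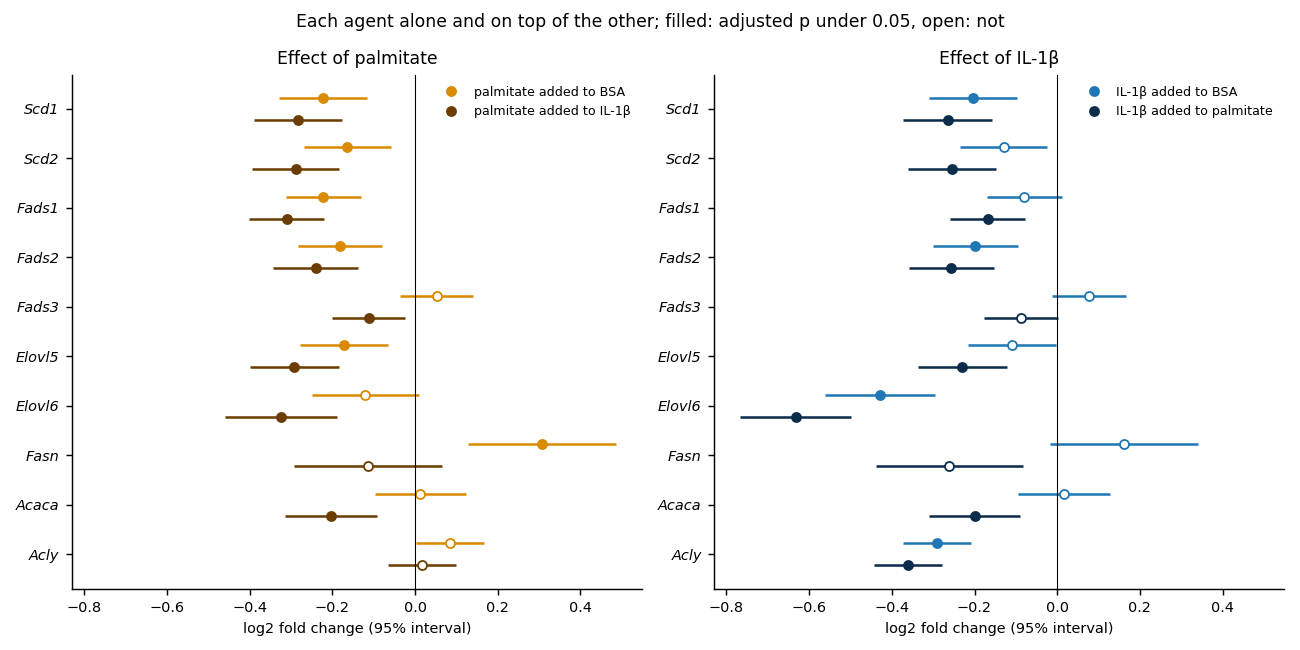
Log2 fold change with 95% interval for palmitate (left) added to BSA or to IL-1β, and for IL-1β (right) added to BSA or to palmitate. Filled points have an edgeR adjusted p under 0.05. For all 10 genes the point on top of the other agent lies to the left of the point against BSA. For each gene this shift is the same value in both panels, the interaction described below, so the panels do not bear on it separately. For Fasn the 2 palmitate points lie at 0.31 and -0.11.

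The palmitate effect in the presence of IL-1β was tested against that in its absence, as an interaction. None of the 10 genes passed in edgeR, where 1.83% of all genes passed below 0 and 0.159% above 0. The interaction term was below 0 for all 10 genes, and for 50.6% of all genes tested, with a median of -0.12 against -0.002. At an unadjusted p under 0.05 there were 4 in edgeR (Fads3, Elovl6, Fasn, Acaca), against 10.2% of all genes, and 3 in DESeq2. Fasn had the largest term, -0.42 (SE 0.12, 95% interval -0.68 to -0.17, edgeR adjusted p 0.108), followed by Acaca at -0.22 (edgeR adjusted p 0.209) and Elovl6 at -0.20 (edgeR adjusted p 0.421). For Fasn the DESeq2 adjusted p was 0.00871, the edgeR adjusted p with no expression filter was 1.5e-06, and the edgeR adjusted p was under the threshold without BSA replicate 3 (0.0339), without IL-1β replicate 5 (0.0232) or without palmitate + IL-1β replicate 15 (0.0492). With no expression filter the Fasn term itself was -0.43, so there too the far lower adjusted p came with nearly the same term. For Scd1 and Fads2 the terms were -0.06 each, with 95% intervals from -0.21 to 0.09 and from -0.20 to 0.09.

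Other genes of the same route and of its control were counted beside the shares of all genes. These shares were 19.8% higher and 17.5% lower for palmitate, 10.1% and 4.97% for IL-1β, and 24.8% and 22.5% for both agents. Of 5 tested among the other desaturases and elongases, palmitate lowered 1 and raised none. In the elongation cycle and its electron donors palmitate raised 3 of 9 tested, Cyb5a by 0.49, Hsd17b12 by 0.25 and Cyb5b by 0.16 on the log2 scale (edgeR adjusted p 6.39e-08, 3.28e-05 and 0.0074), and lowered Hacd4 (log2 -0.50, edgeR adjusted p 4.5e-09). Cyb5a and Cyb5b encode the cytochromes b5 that bring electrons to the desaturases, and Hsd17b12 and Hacd4 act in the later steps of each elongation cycle. Among 8 genes that supply acetyl-CoA and NADPH, palmitate raised Pgd (log2 0.81, edgeR adjusted p 4.79e-17) and G6pdx (log2 0.47, edgeR adjusted p 2.39e-09), enzymes of the pentose phosphate route, and lowered Idh1 (log2 -0.53, edgeR adjusted p 2.31e-11) and Acss2 (log2 -0.41, edgeR adjusted p 0.000718). IL-1β alone went the same way for Pgd (log2 0.43), Idh1 (log2 -0.21), Acss2 (log2 -0.51) and Hacd4 (log2 -0.20), all called in edgeR. G6pdx, Cyb5a, Hsd17b12 and Cyb5b were not called with IL-1β. With both agents all 8 genes that supply acetyl-CoA and NADPH were called, 3 higher and 5 lower. Of 6 genes tested for the carboxylase Acacb and mitochondrial fatty acid synthesis, edgeR called 0 in each comparison, and at an unadjusted p under 0.05 there were 2 for palmitate against BSA, 1 for both agents against palmitate and 0 in the other comparisons (DESeq2 was not read for these genes).

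Few of the controlling genes were called with palmitate. Srebf1 was at 43.1 ± 2.05 CPM in BSA and 47.3 ± 0.484 CPM in palmitate (log2 0.14, edgeR adjusted p 0.0587), and it was called higher only with both agents (log2 0.18, edgeR adjusted p 0.00803). Srebf2, Scap, Insig1, Nr1h2 and Nr1h3 had log2 differences of 0.10, -0.01, 0.06, 0.00 and -0.14 with palmitate, none called. Over the SREBP, LXR and ChREBP list palmitate raised 1 of 17 tested and lowered 2: Insig2, which holds SREBP in the endoplasmic reticulum, rose by 0.31 (edgeR adjusted p 2.5e-05), while Mlx and Lpcat3 fell by 0.32 and 0.23 (edgeR adjusted p 0.00608 and 0.00204). IL-1β raised 1 and lowered none of the 17, and both agents raised 4 and lowered 2. These are RNA levels, and the processing of SREBP proteins was not measured.

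Sterol synthesis, which shares its control by SREBP factors with fatty acid synthesis, separated the agents when each was given alone. Palmitate lowered 2 of 20 sterol genes and raised none, with a median log2 difference of -0.01, among them Dhcr7 (log2 -0.19, edgeR adjusted p 0.0215), a late enzyme of the route. IL-1β lowered 15 of the 20 and raised none, with a median of -0.38, and both agents lowered 17, with a median of -0.47. Palmitate against IL-1β gave 16 of the 20 higher with palmitate and none lower, against 16.5% and 15.2% of all genes. The median was 0.37. Added to IL-1β, however, palmitate lowered 7 of the 20 and raised none, with a median of -0.16. Among all genes 16.1% were lower and 18.9% higher in that comparison. The other sterol gene that palmitate lowered against BSA was Mvk (log2 -0.25, edgeR adjusted p 0.00644), named after its values were seen. With palmitate 5 of 10 genes of the fatty acid route and 2 of 20 of the sterol route were lower, against 17.5% of all genes. With IL-1β these counts were 4 of 10 and 15 of 20, against 4.97% of all genes.

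Of 14 PPAR factors and fatty-acid-induced genes tested, palmitate raised 3 and lowered 7, and IL-1β raised 9 and lowered none. Ppard rose with palmitate (log2 0.68, edgeR adjusted p 1.18e-12) and Pparg fell from 19.6 ± 0.251 to 9.82 ± 0.733 CPM (log2 -0.99, edgeR adjusted p 1.11e-12). Ppard also rose with IL-1β (log2 0.51, edgeR adjusted p 7.17e-09), where Pparg was not called (log2 -0.17, edgeR adjusted p 0.106). Ppara was too low to test, at a mean of at most 0.317 CPM. Angptl4, an inhibitor of lipoprotein lipase, was at 4.44 ± 1.35 CPM in BSA, 20.7 ± 2.68 CPM in palmitate, 100.5 ± 3.40 CPM in IL-1β and 154 ± 5.91 CPM with both (log2 2.26, 4.52 and 5.14, edgeR adjusted p 5.29e-09, 2.61e-12 and 5.72e-14). Acaa2, of mitochondrial beta-oxidation, fell with palmitate (log2 -0.73, edgeR adjusted p 4.08e-11) and rose with IL-1β (log2 0.52, edgeR adjusted p 1.32e-07).

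AMPK, the kinase that phosphorylates and inhibits acetyl-CoA carboxylase, was represented by 9 subunit and upstream kinase genes. Palmitate raised 3 and lowered 4 of them. The subunit genes Prkab2, Prkag2 and Prkag1 fell by 0.70, 0.50 and 0.30 on the log2 scale (edgeR adjusted p 7.88e-11, 8.64e-08 and 7.66e-05), and Camkk2, an upstream kinase, rose by 0.69 (edgeR adjusted p 9.26e-12). IL-1β raised 3, among them Camkk2 (log2 0.30), and lowered 1, Prkag2 (log2 -0.22). Both agents raised 3 and lowered 4.

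**Figure D4:**
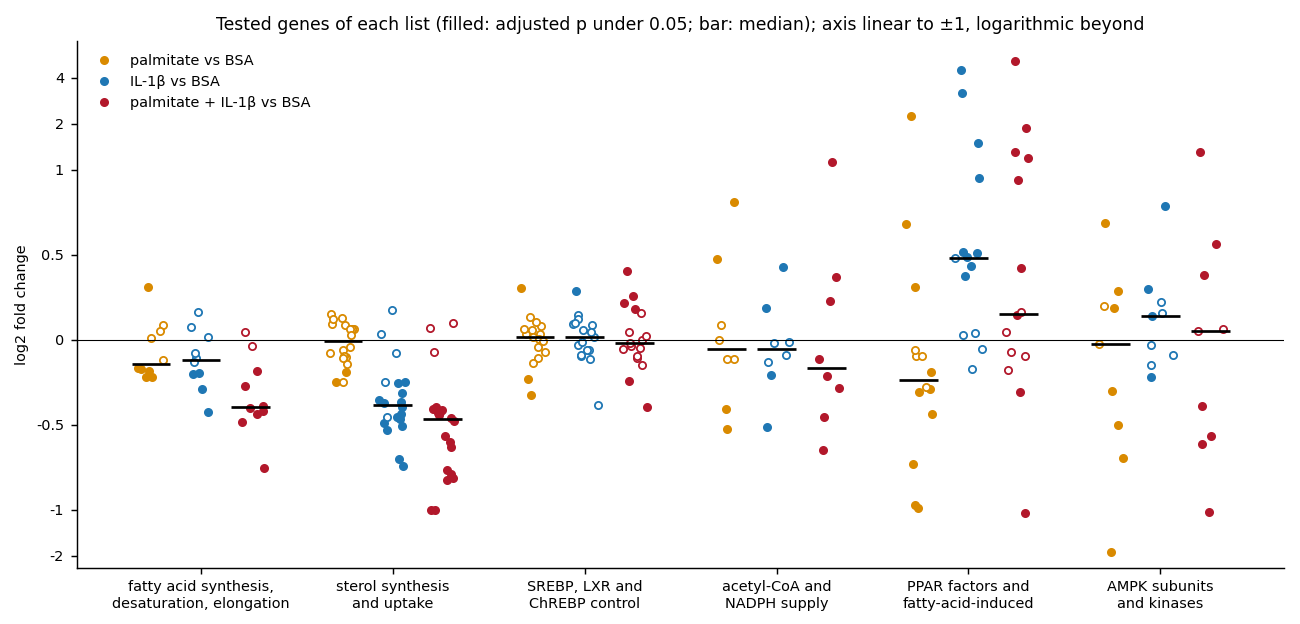
Log2 fold change against BSA (linear to 1 either side of 0, logarithmic beyond) of every tested gene of 6 lists, for palmitate, IL-1β and palmitate + IL-1β. Filled points have an edgeR adjusted p under 0.05, open points do not, and bars are medians. The sterol list has its median near 0 with palmitate and at -0.38 with IL-1β, and the 10 genes of fatty acid synthesis, desaturation and elongation have medians of -0.14 and -0.12.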

How the data were processed

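Bulk RNA of 16 mGF libraries was used, 4 per condition as the labels assign them. Per the submitters' processing notes, Trimmomatic 0.39, STAR 2.7.10a and HTSeq 2.0.9 were used with GRCm39, and the deposited values are the authors' raw counts per gene of GENCODE vM33, neither filtered nor normalized. Rows that name no gene, 18.3% to 21.4% of a library, were not used. The study's methods describe an oligo(dT)-primed SMART-Seq library and the labels a stranded total RNA kit, which decides whether non-polyadenylated and antisense RNA enters the counts.

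The quasi-likelihood test of edgeR 4.0.16 (R 4.3.3) was run on 16306 genes kept by filterByExpr (minimum count 10, minimum total 15), with TMM scaling and robust glmQLFit. One model of the 4 conditions covered the 16 libraries, with Benjamini-Hochberg adjustment over all genes tested and a threshold of 0.05. CPM levels used TMM-scaled totals, and intervals are at 95%. The Scd1 share was tested by an exact permutation test. Transcript lengths, positions and promoters came from GENCODE vM39 on the same assembly, and shared sequence was searched with blastn 2.17.0. On simulated counts for palmitate against BSA (16063 genes), edgeR called 36.6% of 71 genes changed by 0.3 on the log2 scale. It called 68.9% of 61 genes changed by 0.5, 81.2% of 64 changed by 1, and 0.0504% of 15867 unchanged genes. The changed genes were drawn from all levels of expression. In the data 37.3% of genes were called with palmitate, so the adjustment was less strict there, and the simulated rates do not carry over to the 10 genes.

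The 10 genes, the gene lists and the tests were chosen with earlier results of these data known. Apart from the 10 genes, those named are up to 4 per list with the largest change among genes called with palmitate, not overlapping with BSA and with an average log2 CPM of at least 0, and Srebf1, Srebf2, Insig1, Scap, Nr1h2, Nr1h3, Ppara, Ppard and Pparg. Alternatives were DESeq2 1.42.0, upper-quartile normalization, other filters, removal of mitochondrial and ribosomal RNA genes, fits of 8 libraries, a fold threshold, and leaving out each library. Some genes of the lists and 1 promoter are not reported here.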

Additional observations from a re-analysis of the deposited data

Results flagged for a closer look

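In 44 groups of 4 libraries examined, 2 had a library set apart from the other 3 beyond Dixon's limit for 4 values, where chance gives about 1 in 20. Acly was at 162.8 CPM in palmitate replicate 12 against 170.3 to 171.4 CPM in the other palmitate libraries, and the Scd1 share was 21.76% in IL-1β replicate 6 against 22.59% to 22.74% in the others.

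For 2 of the named genes outside the 10, palmitate acted differently in the presence of IL-1β than in its absence. For Angptl4 the interaction term was -1.65 on the log2 scale (edgeR adjusted p 3.87e-05), with a rise of 2.26 against BSA and of 0.61 against IL-1β. For Camkk2 it was -0.42 (edgeR adjusted p 0.00106), with rises of 0.69 and 0.26.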

How the results depend on the processing

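The alternatives other than the fold threshold gave 952 values of the 10 genes, of which 902 kept their direction and their side of the threshold. Of the rest, 13 lost their call, 19 gained one and 18 changed sign. For palmitate against IL-1β these values cover only the genes called there (Fads1, Elovl6 and Acly). Requiring also a log2 fold change above 0.5 left 0 of the 10 genes with palmitate, 0 with IL-1β and 1 with both agents against BSA (Elovl6), 0 for both agents against IL-1β, 1 for both agents against palmitate and 0 for palmitate against IL-1β. The share of all genes that passed this fold threshold is not given here. These counts alone therefore do not show whether the 10 genes differ from other genes. Upper-quartile normalization called 7 with IL-1β against BSA. For the interaction, 1 gene (Fasn) was called with no expression filter and 1 with DESeq2, and 0 to 1 when single libraries were left out.

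Signs changed only where differences were near 0. Under upper-quartile normalization, Fads3 and Acaca with palmitate were at -0.0165 and -0.0561, Acaca with IL-1β at -0.0301, Fasn with both agents at -0.0310 and Acly for both agents against IL-1β at -0.0158. With no filter Acaca with palmitate was at -0.00199 and Acly for both agents against IL-1β at -0.00418, and with at least 10 counts in every library Acaca with palmitate was at -0.00600. Leaving out single libraries moved Acaca between -0.0170 and 0.0470 with palmitate and between -0.0183 and 0.0504 with IL-1β, Fasn with both agents between -0.0103 and 0.109, Fads3 with both agents between -0.0618 and 0.00531 and Acly for both agents against IL-1β between -0.00189 and 0.0351. The difference in Scd1 share then ran from -0.386 to 0.367 percentage points for both agents against IL-1β and from -0.588 to 0.165 against palmitate. The cause of these changes was not tested.

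Upper-quartile normalization moved the median of all genes by less than 0.1. Counts of the 10 genes per library were at least 908, and the number of libraries, 4 a condition, limits the precision. No paired analysis was possible because the replicate numbers are not shared between conditions.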
